A study of Daphnia magna with 15 samples.

Results

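DNA methylation of adult female Daphnia magna was compared between 3 libraries labelled control and 3 libraries labelled salinity whose titles carry the numbers 52, 54 and 55, out of 15 libraries in all. The controls were 3.S1, 7.S10 and 9.S17. The salinity libraries were 52.S5, 54.S14 and 55.S21, called the trio below. They were chosen by title number and not by a measured value, though earlier results of these data were known. Daphnia magna is a freshwater crustacean (water flea) used in aquatic toxicology. Founding cultures were 6 in number, 3 of them without added salt (0 g/L NaCl) and 3 at 4.1 g/L NaCl, and all were held at 20 °C in 16 h of light and 8 h of darkness. Later generations grew in control medium up to generation 4, so a library labelled salinity can come from exposed founders or from descendants that never met the salt. The labels do not give the generation or the culture of any library, nor how many animals went into one, and the 3 titles of the trio need not share either. The p-values therefore measure how far these libraries spread, which may in part be technical. The title of the series names hypomethylation after salinity stress, and the comparison asks whether methylation was lower in the trio than in the controls.

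In DNA methylation a methyl group is added to cytosine by DNA methyltransferases, and the mark is copied when DNA is replicated. In arthropods such as Daphnia it is sparse and lies mostly inside the bodies of a subset of genes, many of them expressed in most tissues, while the rest of the genome carries very little of it. This differs from vertebrates, where most of the genome is methylated. The libraries were made from DNA cut with MspI, an enzyme that cuts at CCGG, and treated with bisulfite, which converts unmethylated cytosine so that it is read as thymine. For each mRNA gene model the deposited values give a total of cytosine calls and how many of them were methylated, and the level of a gene model is that share. The files do not pair gene model identifiers with gene names, so no gene function is given here.

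The 6 libraries listed 24809 gene models between them, of which 1470 were listed in all 6 and 901 had at least 10 calls in each. Those 901 are the basis of the levels below. They held 4.97% to 8.66% of a library's calls. Controls listed 15803, 14631 and 13647 gene models, and the trio listed 14818 (52.S5), 10918 (54.S14) and 8053 (55.S21). The library 55.S21 thus listed the fewest and also held the fewest calls, 1250901 against 1892774 in 54.S14, 2311567 in 52.S5 and 2115766 to 2467138 in the controls. The number listed averaged 14694 ± 1079 (SD, n = 3) in the controls and 11263 ± 3396 (SD, n = 3) in the trio, which overlapped (two-sided exact permutation test over 20 splits, p = 0.3). With 3 libraries against 3 this test cannot give a p below 0.1.

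The libraries also differed in the smallest methylated count they hold. Counts of 1 and 2 were nearly absent, and the lowest recurring count, defined as the smallest count found in 5% or more of the methylated gene models of a library, was 3 in 3.S1, 7.S10 and 52.S5 and 4 in 9.S17, 54.S14 and 55.S21. A count of 3 was held by 556 gene models in 3.S1, 494 in 7.S10 and 491 in 52.S5. It was held by 0 gene models in 9.S17, 1 in 54.S14 and 2 in 55.S21. In the first set of libraries a count of 6 was more common than 5, with 157 against 89 gene models in 3.S1, 154 against 71 in 7.S10 and 100 against 86 in 52.S5. In the second set a count of 8 was more common than 7, with 31 against 9 in 9.S17, 21 against 6 in 54.S14 and 19 against 11 in 55.S21. A level of 0 can thus hide methylated calls, and how many is not known. The limit, read as the lowest recurring count, is higher in 2 libraries of the trio and in 1 control. Values within each set of libraries, and values with all counts of 3 or less set to 0, are given beside the results below.

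**Figure D1:**
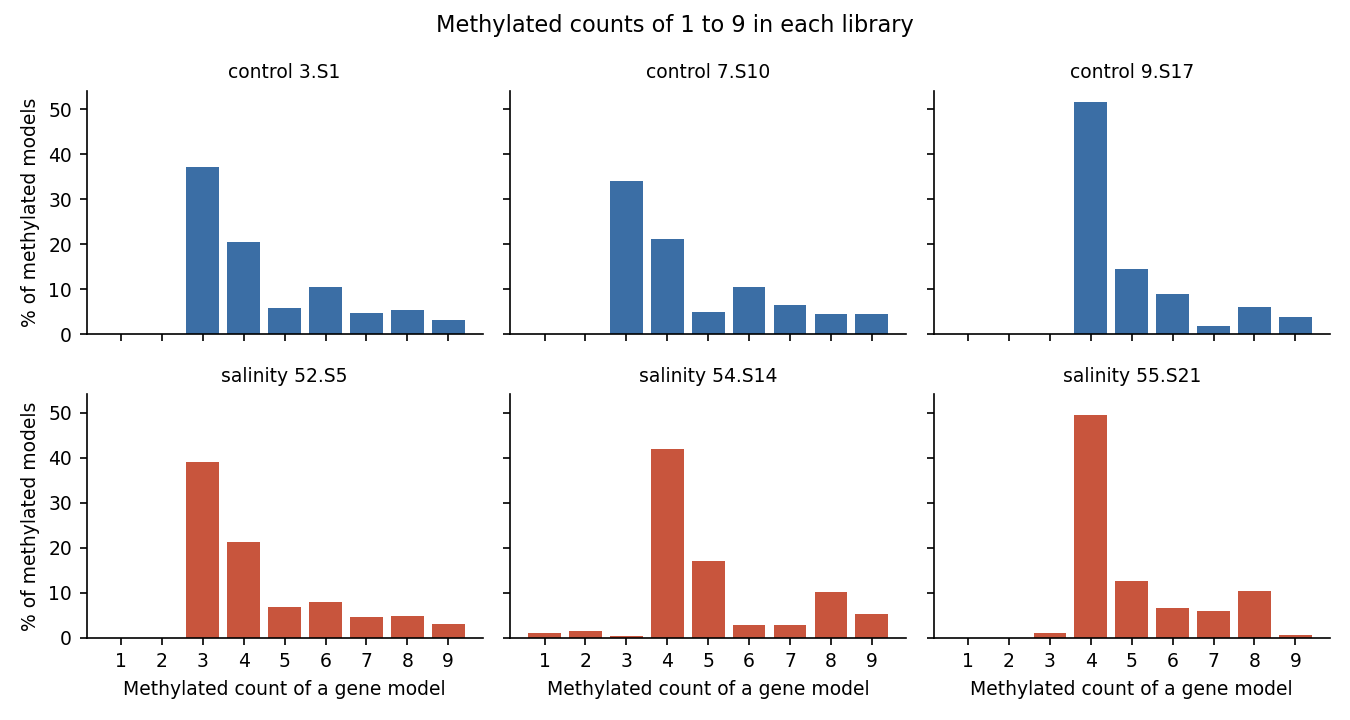
The share of methylated gene models (vertical axis, percent) that carry each methylated count from 1 to 9 (horizontal axis) in the 6 libraries, controls in blue and the trio in red. The bars start at 3 in 3.S1, 7.S10 and 52.S5, and the first tall bar is at 4 in 9.S17, 54.S14 and 55.S21.

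Fewer methylated gene models were read in the trio on average, but not beyond the spread between libraries. Methylated calls were found in 58 (3.S1), 62 (7.S10) and 22 (9.S17) of the 901 gene models in the controls. In the trio they were found in 47 (52.S5), 19 (54.S14) and 17 (55.S21). The libraries 54.S14 and 55.S21 were the lowest of the 6 and 9.S17 was next, while 52.S5 lay between 9.S17 and the other controls, so the groups overlapped. As shares these are 5.25% ± 2.45 (SD, n = 3) in the controls and 3.07% ± 1.86 (SD, n = 3) in the trio, a difference of -2.18 percentage points (two-sided exact permutation test, p = 0.2; adjusted over the 7 comparisons of this pair of groups, 0.467). The 90% interval of the difference, made by inverting this test, ran from -4.99 to 2.77 percentage points. Among libraries with a lowest count of 3, the share was 6.44% and 6.88% in the controls and 5.22% in 52.S5. Among those with a lowest count of 4 it was 2.44% in the control and 2.11% and 1.89% in the trio. Compared within these sets the mean difference was -0.943 percentage points (exact permutation over 9 splits, p = 0.111, the smallest it can give). With counts of 3 or less set to 0 in all 6 libraries, the shares were 4.00%, 4.99% and 2.44% in the controls and 3.44%, 1.89% and 1.66% in the trio, whose mean differed by -1.48 percentage points (exact permutation p = 0.2).

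The overall level, methylated calls over all calls of the 901 gene models, split the libraries of both groups by their lowest count. It was 0.254% (3.S1), 0.284% (7.S10) and 0.141% (9.S17) in the controls. In the trio it was 0.245% (52.S5), 0.134% (54.S14) and 0.151% (55.S21). The libraries with a lowest count of 4 were at 0.134% to 0.151% and the others at 0.245% to 0.284%, whatever their label. These levels rest on 163 to 388 methylated calls per library. The Wilson 95% interval ran from 0.116% to 0.156% for 54.S14 and from 0.257% to 0.313% for 7.S10. It covers counting error only, since calls of the same read are not independent. Group means were 0.226% ± 0.0754 (SD, n = 3) in the controls and 0.177% ± 0.0599 (SD, n = 3) in the trio (difference -0.0494 percentage points, exact permutation p = 0.4). The 90% interval of the difference ran from -0.149 to 0.105 percentage points. Within the set with a lowest count of 3 the trio library was lower by mean, at -0.0235 percentage points, and within the other set the trio was higher, at 0.00165. With counts of 3 or less set to 0, the levels were 0.204%, 0.246% and 0.141% in the controls and 0.204%, 0.133% and 0.145% in the trio, and the means differed by -0.0366 percentage points (exact permutation p = 0.4). The 3 libraries with a lowest count of 4 remained the lowest of the 6. The cut acts on totals of a gene model, and whether it makes the limits of the libraries alike was not tested.

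With the same weight for every gene model, the mean level was 0.481%, 0.687% and 0.171% in 3.S1, 7.S10 and 9.S17. It was 0.460%, 0.187% and 0.229% in 52.S5, 54.S14 and 55.S21. The control mean of 0.446% ± 0.260 (SD, n = 3) and the trio mean of 0.292% ± 0.147 (SD, n = 3) overlapped by libraries (exact permutation p = 0.5). A level of 10% or more was reached by 15, 22 and 8 gene models in the controls and by 15, 7 and 8 in the trio, in the same order of libraries. The control share averaged 1.66% ± 0.777 (SD, n = 3), and that of the trio was 1.11% ± 0.484 (SD, n = 3; exact permutation p = 0.5). Over the larger sets of gene models that each library covered by itself, which differ between libraries, differences were more than 1.5 times as large. The test could again not pass, as its smallest p is 0.1. The overall level was then 0.349%, 0.361% and 0.153% in the controls and 0.304%, 0.124% and 0.102% in the trio, a difference of -0.111 percentage points, and that in mean level was -0.353 (exact permutation p = 0.2 for each). Methylated calls were found in 9.99%, 10.5% and 4.02% of covered gene models in the controls and in 8.92%, 2.19% and 2.50% in the trio, and the means differed by -3.64 percentage points (exact permutation p = 0.2). Among all listed gene models the share was 7.71% ± 3.46 (SD, n = 3) in the controls and 4.21% ± 3.71 (SD, n = 3) in the trio (exact permutation p = 0.2).

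A level of 50% or more was seen in 1 gene model each in 3.S1 and 7.S10 and in 0 gene models in the 4 other libraries. Among methylated gene models the median level was 5.05%, 6.90% and 3.93% in the controls and 7.14%, 5.63% and 6.96% in the trio. In each group the libraries with a lowest count of 4 were below those with 3. Across the groups the values of the 2 sets overlapped.

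**Figure D2:**
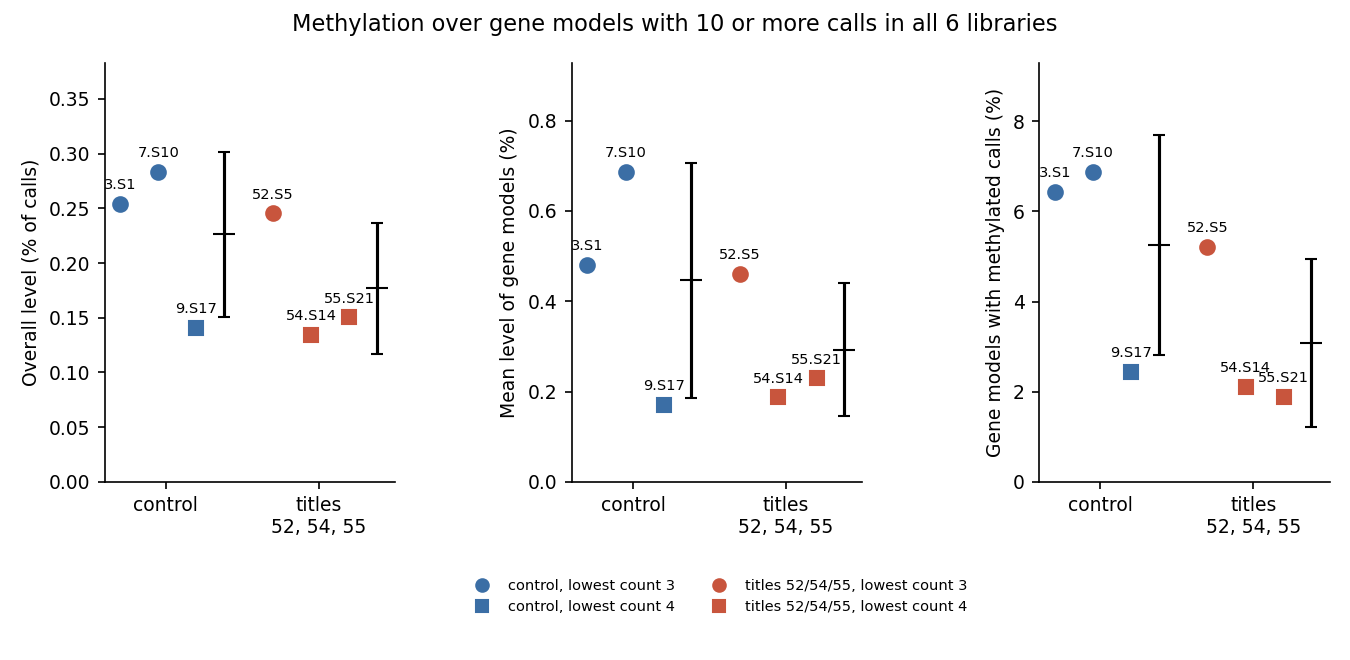
Overall level, mean level and share of methylated gene models (percent) over 901 gene models, 1 point per library, with group mean and SD in black. Round points have a lowest methylated count of 3 and squares of 4; the squares lie at 0.134% to 0.151% overall level in both groups and the round points at 0.245% to 0.284%.

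The share of methylated gene models was also read by depth. Among gene models with 30 to 99 calls, methylated calls were found in 6.24% (3.S1), 6.19% (7.S10) and 1.14% (9.S17) in the controls. The trio had 5.19% (52.S5), 1.70% (54.S14) and 1.22% (55.S21). From 100 calls to under 300 the controls were at 8.30%, 5.96% and 4.09% and the trio at 4.31%, 0.535% and 1.12%, so 52.S5 lay beside 9.S17 and the other trio libraries below all controls. Among those with 300 or more calls, 8 of 84, 11 of 87 and 7 of 76 were methylated in the controls (9.21% to 12.6%). The trio had 9 of 75, 9 of 84 and 5 of 73 there, the last being 6.85%, so 52.S5 and 54.S14 lay within the range of the controls and 55.S21 below it. In the 161 gene models that reached 100 calls in all 6, the overall level was 0.128%, 0.122% and 0.150% in the controls and 0.122%, 0.122% and 0.151% in the trio. The difference in overall level was then -0.00192 percentage points (exact permutation p = 0.8). The share of methylated gene models kept a difference of -2.28 percentage points (7.87% and 5.59%, exact permutation p = 0.3). Dapma7bEVm022692t1, Dapma7bEVm015243t1 and Dapma7bEVm028953t1, the last named after its values were seen, each held 30 of the 96 methylated calls of 55.S21 in this set. In 54.S14 each held 19 of 89. Their counts were the same in all libraries but 3.S1. The level can thus count the same calls more than once, which was not tested in this set. In 54.S14 and 55.S21 methylated calls were concentrated. The 5 gene models with most of them held 58.1% and 67.5% of the methylated calls over the 901 gene models. In the other 4 libraries this was 21.1% to 41.6%. Dapma7bEVm022692t1, Dapma7bEVm015243t1 and Dapma7bEVm028953t1 were among these 5 in 54.S14 and in 55.S21, so the concentration can repeat the same calls.

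**Figure D3:**
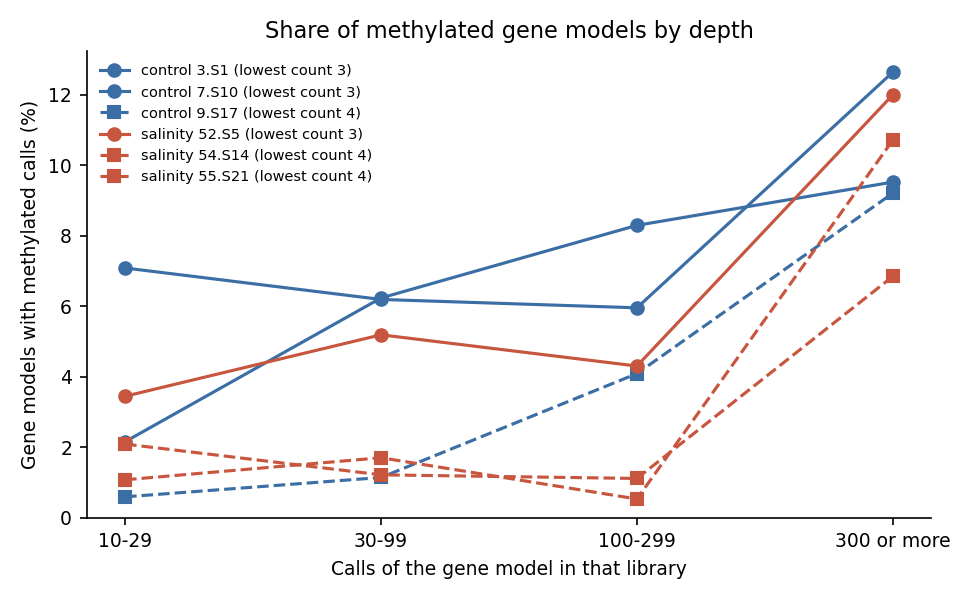
Share of gene models with methylated calls (vertical axis, percent) by the number of calls of the gene model in that library (horizontal axis, 4 classes), 1 line per library, controls blue, trio red, dashed for a lowest count of 4. Between 30 and 99 calls the dashed lines lie at 1.14% to 1.70% and the solid lines at 5.19% to 6.24%; at 300 or more calls the 6 libraries span 6.85% to 12.6%.

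Libraries of the same lowest count were also set side by side in pairs, over all gene models that the pair covered. Of 8720 gene models with 10 or more calls in both, 52.S5 was methylated at 764 (8.76%) and 3.S1 at 862 (9.89%). The library 52.S5 was also the lower one against 7.S10, with 557 (8.76%) against 623 (9.80%) of 6357 gene models. Of 5881 gene models 54.S14 was methylated at 129 (2.19%) and 9.S17 at 227 (3.86%), and over 3291 gene models 55.S21 was methylated at 67 (2.04%) and 9.S17 at 117 (3.56%). In each of these 4 pairs the trio library had the smaller share. Between 2 controls, 3.S1 was at 9.40% and 7.S10 at 9.96% of 8103 gene models. Overall levels in the same pairs were 0.312% against 0.340%, 0.323% against 0.354%, 0.125% against 0.137% and 0.0844% against 0.124%, the trio library first. The pairs share libraries and are not independent, so no test is given. The median depth moved with the share, at 68, 67, 67 and 58 calls in the trio library against 75, 74, 80 and 69 in the control, and its part was not tested. At 100 or more calls in both, 52.S5 was at 9.98% against 11.3% in 3.S1 and was marginally the higher one against 7.S10 (10.336% against 10.287%), while 54.S14 was at 2.94% against 5.03% and 55.S21 at 2.46% against 4.10% in 9.S17. Overall levels at that depth were 0.171% against 0.182% and 0.170% against 0.173% for 52.S5, and 0.0465% against 0.0570% for 55.S21. For 54.S14 the direction turned, at 0.110% against 0.0975% in 9.S17.

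Methylated gene models were partly the same in the trio and the controls. Of the 47 gene models methylated in 52.S5, 21 (44.7%) were also methylated in 3.S1 and 22 (46.8%) in 7.S10, and 5 (10.6%) in 9.S17. Of the 19 in 54.S14, 10 (52.6%) were methylated in 3.S1, 12 (63.2%) in 7.S10 and 9 (47.4%) in 9.S17. Of the 17 in 55.S21, 6 (35.3%) were methylated in 3.S1, 10 (58.8%) in 7.S10 and 6 (35.3%) in 9.S17. Over all 901 gene models the shares methylated were 6.44%, 6.88% and 2.44% in these controls, and 5.22%, 2.11% and 1.89% in 52.S5, 54.S14 and 55.S21. Within the trio, 54.S14 and 55.S21 shared 8 gene models, which is 42.1% of the first and 47.1% of the second. Among these 8 were Dapma7bEVm022692t1, Dapma7bEVm015243t1 and Dapma7bEVm028953t1, whose methylated counts were the same in all libraries but 3.S1. Dapma7bEVm009363t1 and Dapma7bEVm645890t1, named after their values were seen, were also among them and shared all their methylated counts. The gene models named here were methylated in 9.S17 too. These overlaps and the correlations below can thus repeat the same calls. The library 52.S5 shared 7 with 54.S14 and 5 with 55.S21, or 14.9% and 10.6% of its own. Across the 901 gene models, which are not independent and are mostly at 0, the Pearson correlation of levels within the trio was 0.46 between 54.S14 and 55.S21, 0.28 between 52.S5 and 54.S14, and 0.15 between 52.S5 and 55.S21. With 3.S1, 7.S10 and 9.S17 in turn it was 0.29, 0.29 and 0.02 for 52.S5, 0.29, 0.18 and 0.31 for 54.S14, and 0.08, 0.10 and 0.26 for 55.S21.

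By number of libraries, 771 of the 901 gene models (85.6%) were without methylated calls in all 6. Of the other 130, 22 were methylated in 1 trio library and no control, and 53 in 1 control and no trio library. The 53 were 23 in 3.S1, 24 in 7.S10 and 6 in 9.S17. The 22 were 14 in 52.S5, 3 in 54.S14 and 5 in 55.S21. Methylation in at least 2 controls and in no trio library was found for 10 gene models (1.11% of the 901), and the reverse for 1 (0.111%). These 10 were methylated in 9 (3.S1), 8 (7.S10) and 6 (9.S17) of the cases, with control means of 1.72% to 12.3%. Their median depth was 91 calls in the controls and 67.5 in the trio. All 3 libraries of each group were methylated at 3 gene models. These were Dapma7bEVm022692t1, Dapma7bEVm015243t1 and Dapma7bEVm028953t1, which can repeat the same calls. The mean level was lower in the trio in 85 gene models, higher in 44 and equal in 1. A lowest count of 3 was held by 2 controls but only 1 trio library, and its part in these counts was not tested.

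No gene model passed the test of the trio against the controls. In a quasi-binomial regression on methylated and total calls with Benjamini-Hochberg adjustment over 901 gene models, 0 were lower and 0 higher at an adjusted p under 0.05 (0% in each direction). All adjusted p-values were 1. At an unadjusted p under 0.05 there were 8 with the lower mean in the trio (0.888%) and 3 with the higher (0.333%). Other tests called a few, with 5 in edgeR's quasi-likelihood test, 1 in limma on logit levels and 9 in Fisher's exact test on pooled counts. Fisher's test ignores the spread between libraries.

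The smallest p among gene models with the lower mean was that of Dapma7bEVm002844t1. It carried 5 of 52, 4 of 36 and 5 of 31 methylated calls in 3.S1, 7.S10 and 9.S17, and 0 of 41, 0 of 27 and 0 of 28 in the trio. All controls were methylated and no trio library was, at 12.3% ± 3.41 (SD, n = 3) against 0 (quasi-binomial p = 0.0141, adjusted p = 1; exact permutation p = 0.1). It was the gene model that limma called (adjusted p = 0.0468), and Fisher's exact test gave an adjusted p of 0.0368. In the 9 other salinity libraries it was methylated in 3, at up to 7.69%. Levels of the trio lay below all controls in 3 of the 901 gene models (0.333%) and above them in 0. The other two, named after their values were seen, were Dapma7bEVm010744t1 and Dapma7bEVm010290t1. The first had the same methylated counts as Dapma7bEVm002844t1 in all 6 libraries and is not a separate observation if they overlap, which the files do not show. Dapma7bEVm010290t1 carried 3 of 39, 3 of 43 and 11 of 101 methylated calls in the controls and 0 of 51, 0 of 26 and 0 of 17 in the trio.

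Next was Dapma7bEVm027707t1, with 8 of 75, 5 of 60 and 0 of 42 methylated calls in the controls and 0 of 78, 0 of 58 and 0 of 29 in the trio. One control had no methylated call either, so the groups overlapped at 0. Its mean was 6.33% ± 5.61 (SD, n = 3) in the controls (adjusted p = 1; exact permutation p = 0.4). In the other direction, Dapma7bEVm004907t1 had the smallest p, with 0 methylated calls in all controls (of 22, 29 and 29 calls) and 5 of 37, 5 of 19 and 0 of 10 in 52.S5, 54.S14 and 55.S21. The mean in the trio was 13.3% ± 13.2 (SD, n = 3; adjusted p = 1; exact permutation p = 0.4), and 1 of the 9 other salinity libraries was methylated. This was also the gene model methylated in 2 trio libraries and no control. The second, Dapma7bEVm629880t1, was methylated in 55.S21 only among the 6, at 5 of 192 calls (2.60%), and was listed at 2 positions across the libraries.

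The gene models methylated in most libraries did not differ between the groups beyond the spread of the libraries. Methylated calls in at least 5 of the 6 libraries were found for 5 gene models, and the 4 with the highest mean level follow. The gene model left out was Dapma7bEVm028953t1. It shared its methylated counts with Dapma7bEVm022692t1 and Dapma7bEVm015243t1 in all libraries but 3.S1. Dapma7bEVm014472t1 was at 8 of 48, 11 of 48 and 0 of 23 methylated calls in 3.S1, 7.S10 and 9.S17, and at 9 of 41, 5 of 21 and 6 of 27 in 52.S5, 54.S14 and 55.S21. The trio was even, at 22.0%, 23.8% and 22.2%, and lay within the control range of 0 to 22.9% except for 54.S14 (adjusted p = 1; exact permutation p = 0.3). It was methylated in 7 of the 9 other salinity libraries, with a median of 15.4%. Dapma7bEVm028117t1 was at 7.89%, 4.20% and 4.44% in the controls and at 9.09%, 14.7% and 0 in the trio, from 34 to 119 calls. The means of 5.51% ± 2.07 and 7.93% ± 7.42 (SD, n = 3 each) overlapped (exact permutation p = 0.6).

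The other two of the 4 had the same methylated counts, 16, 10 and 16 in the controls and 8, 19 and 30 in 52.S5, 54.S14 and 55.S21, over different totals. Dapma7bEVm022692t1 was at 3.54%, 2.47% and 3.72% in the controls and 2.53%, 5.41% and 6.96% in the trio, from 316 to 452 calls. Dapma7bEVm015243t1 was at 1.40%, 0.978% and 1.38% in the controls and 0.768%, 1.87% and 3.12% in the trio, from 961 to 1159 calls. At both, 55.S21 was the highest and 54.S14 the second highest of the 6, in contrast to their low overall levels, while 52.S5 was the second lowest at the first and the lowest at the other. The exact permutation p was 0.3 for the first and 0.5 for the second, with adjusted p = 1 for each. In all, 8 groups of gene models had the same methylated counts in all 6 libraries. They held 19 of the 55 gene models methylated in 2 or more libraries, so counts of gene models overstate the number of separate sites. With each such group kept once (890 gene models), the trio differed from the controls by -0.0534 percentage points in level over all calls. In the share of methylated gene models it differed by -2.06 (exact permutation p = 0.2 for each). Dapma7bEVm028953t1, which differs in 3.S1, was not in these groups.

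**Figure D4:**
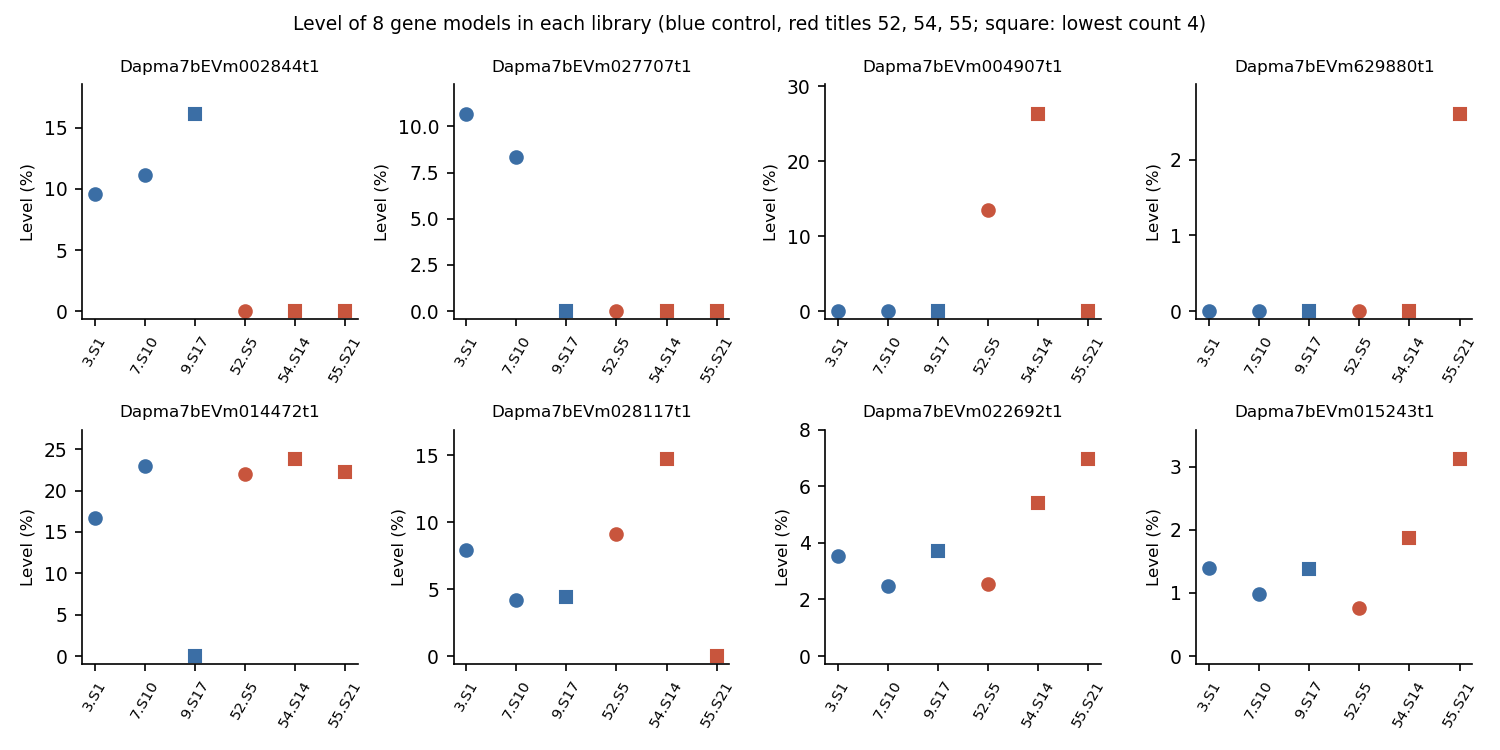
Level (vertical axis, percent) of the 8 named gene models in each of the 6 libraries (horizontal axis), controls blue, trio red, squares for libraries with a lowest methylated count of 4. Dapma7bEVm002844t1 is at 9.62% to 16.1% in the controls and at 0 in the trio, and Dapma7bEVm022692t1 is highest in 55.S21 at 6.96%.

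The trio was lower than the other libraries of its own label. In the 810 gene models that every one of the 15 libraries read at 10 or more calls, the overall level was 0.226% in 52.S5, 0.139% in 54.S14 and 0.148% in 55.S21. The 9 other salinity libraries ran from 0.209% to 0.312% with a median of 0.248%. The library 52.S5 lay inside that range and 54.S14 and 55.S21 below it. Means were 0.171% ± 0.0475 (SD, n = 3) and 0.254% ± 0.0348 (SD, n = 9), and the difference of -0.0830 percentage points passed (two-sided exact permutation over 220 splits, p = 0.0136; adjusted over 4 measures, 0.0242). The share of methylated gene models was 3.13% ± 2.00 (SD, n = 3) against 5.94% ± 1.18 (SD, n = 9), and the mean level 0.278% ± 0.149 against 0.496% ± 0.0937 (SD, n = 3 and 9), each with an exact permutation p of 0.0182 and an adjusted p of 0.0242. The number of listed gene models did not pass (11263 ± 3396 against 12573 ± 3084, SD, n = 3 and 9; exact permutation p = 0.509).

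That difference rested on 54.S14 and 55.S21. Without 54.S14 it was -0.0673 and without 55.S21 -0.0715 percentage points (exact permutation p = 0.0727 for each), and 52.S5 alone differed from the 9 by -0.0284 (exact permutation over 10 splits, p = 0.5, where 0.1 is the smallest possible). Of the 9, 51.S20 also had a lowest count of 4, and its level of 0.248% was the median of the 9. Over all listed gene models, however, 51.S20 was the lowest of the 9, at 0.190% against 0.284% to 0.384% in the rest, and 5.11% of its gene models were methylated against 6.93% to 11.1%. In the 135 gene models that reached 100 calls in all 15, the trio was at 0.131%, 0.123% and 0.163%. Its mean of 0.139% ± 0.0211 (SD, n = 3) was above that of the others, 0.133% ± 0.0356 (SD, n = 9), and the difference did not pass (exact permutation p = 0.8). In 55.S21 the 93 methylated calls there came from 4 gene models. Dapma7bEVm022692t1, Dapma7bEVm015243t1 and Dapma7bEVm028953t1 held 30 each. The share of methylated gene models was 9.63%, 5.93% and 2.96% in the trio, against 5.93% to 12.6% in the others.

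**Figure D5:**
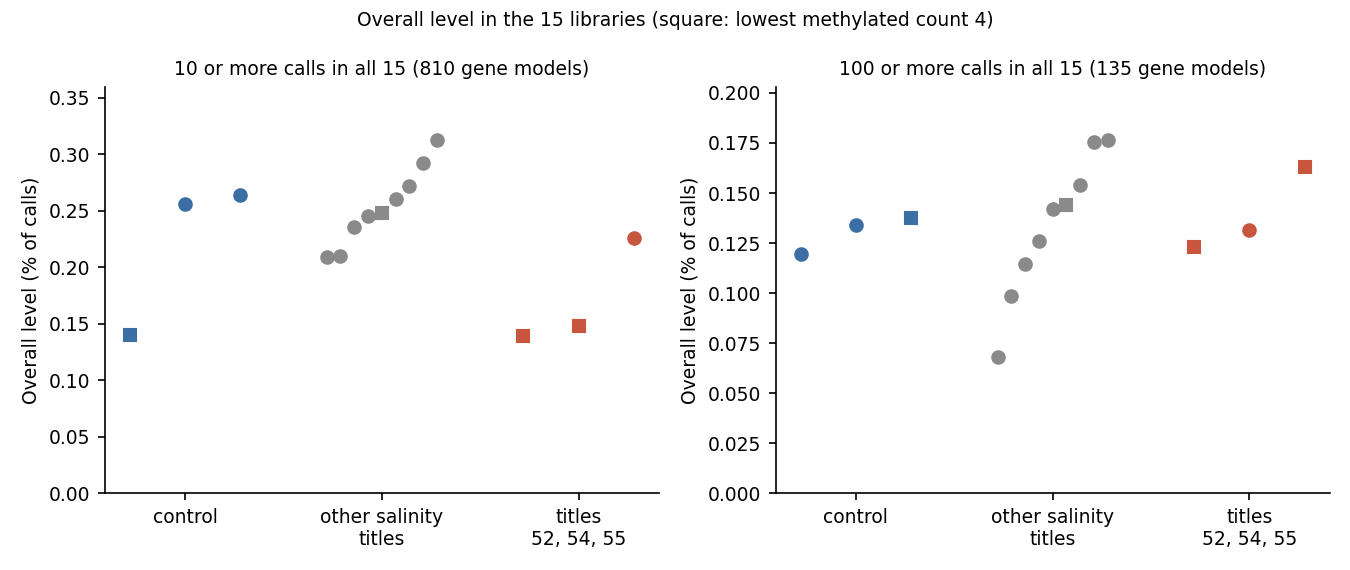
Overall level (vertical axis, percent of calls) in all 15 libraries by group, for 810 gene models with 10 or more calls in each (left) and 135 with 100 or more (right), squares for a lowest methylated count of 4. On the left 54.S14 and 55.S21 (0.139% and 0.148%) lie below the 9 other salinity libraries (0.209% to 0.312%), and on the right the trio lies within their range of 0.0679% to 0.176%.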

How the data were processed

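Libraries were made with MspI, methylated adapters and bisulfite, per the labels' protocols. The submitters' processing notes name Trim Galore 0.4.4, FastQC and Bismark 0.18.1. The sources used here do not give the genome build, the cytosine context or the rule for calling positions. The authors deposited raw counts of all calls (N) and of methylated calls (X) per gene model, without normalization. X was handled as an estimated count as deposited by the authors, since 19 values in the 6 libraries missed a whole number by rounding error, and was rounded. No pair of libraries held identical tables (0).

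Tables were joined by gene model, with at least 10 calls in all libraries compared. Of 25092 identifiers, 0 matched the 28335 RefSeq genes. Single values were compared by two-sided exact permutation; 90% intervals come from inverting that test. Gene models were tested by quasi-binomial regression (F test, Pearson dispersion floored at 1; scipy 1.17.1), tested on simulated data. Alternatives were edgeR 4.0.16, limma 3.58.1 (0.5 added to counts), Fisher's test, other coverage minimums, counts of 3 set to 0, left-out libraries and a block. Named gene models are the 2 with the smallest p per direction and the 4 with the highest mean level among those methylated in at least 5 of 6 libraries. Libraries, members and tests were chosen with earlier results of these data known. No sequence or position is reported.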

Additional observations from a re-analysis of the deposited data

Results flagged for a closer look

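Among the 9 other salinity libraries, 25.S11 stood apart by its share of methylated gene models, 8.64% of the 810 gene models against 4.69% to 6.67% in the remaining libraries of that group. Chance flags about 1 in 20 such groups. Without it the trio differed from the other 8 in overall level by -0.0782 percentage points (exact permutation over 165 splits, p = 0.0182), against -0.0830 with it.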

How the results depend on the processing

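Settings on the lowest methylated count, on shared methylated counts or positions, on the 100-call minimum against the other salinity libraries on 52.S5 alone and without 25.S11 were added once the data had been seen. In levels, shares and listed gene models no setting tried could pass the threshold between the trio and the controls. The smallest possible p was 0.1 or more in each. With a minimum of 50 calls (324 gene models) the trio lay below all controls in level over all calls, at 0.106% to 0.124% against 0.138% to 0.145%. In mean level it did too, at 0.0501% to 0.111% against 0.113% to 0.171% (exact permutation p = 0.1 for each). The share of methylated gene models overlapped there (exact permutation p = 0.2). Between libraries whose lowest count was 4 the difference in overall level turned to 0.00165 and that in mean level to 0.0374 percentage points, while with a minimum of 100 calls no gene model reached 10%, so that difference was 0. Leaving out 1 library at a time, the difference ran from -0.0981 to -0.0192 in overall level, from -0.270 to -0.0353 in mean level, from -3.74 to -1.43 in the share with methylated calls and from -0.974 to -0.160 in the share at 10% or more. It ran from -5208 to -1826 in listed gene models. Each omission also changed the gene models behind the levels and shares. They were 927 to 955 without a control and 1043 to 1443 without a trio library, against 901 before. The extremes came without 52.S5 or control 9.S17 on one side and without 54.S14, 55.S21 or the controls 3.S1 and 7.S10 on the other. Against the other salinity libraries the difference ran from -0.110 to -0.0673 without 1 trio library and passed only without 52.S5. It was -0.0284 for 52.S5 alone and turned to 0.00605 at a minimum of 100 calls. Minimums of 5 and 20 calls and counts of 3 set to 0 left it past the threshold (exact permutation p from 0.0136 to 0.0318). With each library's own covered gene models the differences from the controls were -0.111 in overall level, -0.353 in mean level, -3.64 in the share with methylated calls and -1.20 in the share at 10% or more. The causes were not tested.

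Without 1 library, 0 to 0 gene models passed. Fisher's exact test gave 9 (6 lower, 3 higher by pooled level). Of these 3, Dapma7bEVm630025t1, named after its values were seen, had the lower mean level in the trio, 6.67% against 10%. Its pooled counts include 0 of 810 calls in 9.S17. edgeR gave 5 of 130 tested (Dapma7bEVm002964t1, Dapma7bEVm004518t1, Dapma7bEVm010961t1, Dapma7bEVm015122t1 and Dapma7bEVm629836t1, named after their values were seen), in 4 of which at most 1 library of each group was methylated. limma gave 1. Of 57 gene models at an unadjusted p under 0.05 in limma, 46 had no methylated call in any library, so depth entered through the added 0.5. For Dapma7bEVm028117t1 the difference turned to -0.968 without 54.S14 and was at most 6.38 (without 55.S21). The labels give no replicate numbers. With bands of the S number in the titles as a block, 0 passed and the differences were the same by construction. The exact permutation p over 8 splits ran from 0.25, the smallest it can give, to 1. It was 0.25 for the share with methylated calls and for the number of listed gene models. Deviations of the libraries of a band correlated at 0.07, -0.13 and 0.25, so the bands were not taken as pairs.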
